A study of Mus musculus with 7 samples.

Results

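Myelopoiesis is directed by a small set of transcription factors. PU.1, the product of Spi1, and C/EBPα, the product of Cebpa, commit progenitors to the granulocyte and monocyte lineages. C/EBPε and GFI1 then act in granulocytes, and IRF8 in monocytes and dendritic cells. C/EBPβ and C/EBPδ are related leucine-zipper factors, and C/EBPβ is known for its role in emergency granulopoiesis. IRF2BP2 is a co-repressor first found as a partner of IRF2. The levels of these 8 factors, Spi1, Cebpa, Cebpb, Cebpd, Cebpe, Gfi1, Irf8 and Irf2bp2, were examined in LSK cells with 1 or both Ddx41 alleles. The genes were chosen by symbol, and all 8 were among the 24421 gene symbols measured.

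RNA-seq was performed on LSK (Lin-Sca1+Kit+) cells, the marrow compartment of stem cells and early multipotent cells. Lethally irradiated BoyJ mice received marrow from Ddx41+/+ or Ddx41+/flox donors, and both kinds of donor carried RosaCreERT2, a tamoxifen-activated recombinase that is not restricted to a lineage. All recipients, those of Ddx41+/+ marrow included, were given 1 mg tamoxifen in 2 rounds of 5 daily injections, and LSK cells were sorted from leg bones 8 weeks after the transplant. Replicates 1 to 4 were Ddx41+/+ (n = 4) and replicates 6 to 8 were Ddx41+/- (n = 3), each from the marrow of 1 recipient. The age of the mice is not given in the sources used here. The labels name no gate that separates donor from host cells, so the share of host cells in the sorted fraction is unknown.

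Total counts ranged from 32234499 to 43751290 per sample. In counts scaled to library size (CPM), the targeted gene was lower in Ddx41+/- cells (67.3 ± 2.63 CPM, SD, n = 3) than in Ddx41+/+ cells (97.9 ± 6.43 CPM, SD, n = 4). The edgeR adjusted p was 0.0052. Kit was abundant in all samples, at 427.1 to 505.1 CPM, and Cd34 at 646.7 to 830.0 CPM. Ly6a, which encodes Sca-1, was low at 13.3 to 30.5 CPM, and the cause was not tested. Mecom (21.1 to 39.1 CPM), Slamf1 (5.87 to 10.5 CPM) and Procr (3.26 to 8.85 CPM) were low too. The other LSK markers examined, Flt3, Hlf, Meis1, Hoxa9 and Cd48, lay from 50.0 to 264.4 CPM. The T-cell genes Cd3e, Cd3g and Cd3d were at or below 0.386 CPM in all samples. Markers of mature neutrophils were found in every sample and are described below.

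The promoters of Cebpa and Irf8 are shown first, since they hold the letters of a TATA box close before the start of transcription. Promoter windows (250 bases before and 50 bases after an annotated start, RefSeq, GRCm38.p6) matched 5 of the 8 factors, namely Cebpa, Cebpb, Gfi1, Irf2bp2 and Irf8, with 7 windows in all because Gfi1 and Irf8 each had 2. Spi1, Cebpd and Cebpe were not matched. The 250 bases upstream of the start are given 5′ to 3′ on the + strand, for Cebpa at chr7:35119043-35119292 and for Irf8 at chr8:120736108-120736357. Capitals mark TATAAA and, in Irf8, TGATTT, the complement of the GFI1 core letters AAATCA.
Cebpa: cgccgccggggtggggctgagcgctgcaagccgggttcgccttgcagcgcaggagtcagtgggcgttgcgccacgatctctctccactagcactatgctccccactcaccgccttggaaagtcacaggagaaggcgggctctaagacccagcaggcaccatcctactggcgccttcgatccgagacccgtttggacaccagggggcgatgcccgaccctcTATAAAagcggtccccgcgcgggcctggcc
Irf8: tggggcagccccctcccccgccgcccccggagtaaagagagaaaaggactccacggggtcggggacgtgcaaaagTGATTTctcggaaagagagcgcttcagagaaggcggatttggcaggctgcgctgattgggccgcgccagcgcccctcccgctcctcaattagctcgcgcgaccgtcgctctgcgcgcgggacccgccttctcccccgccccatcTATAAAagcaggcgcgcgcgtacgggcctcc
TATAAA began 30 bases before the start of Cebpa and 31 bases before that of Irf8. It also lay 21 bases after the annotated start of Cebpb, so that 3 of the 7 windows held it on the transcribed strand, against 8.32% of all 32851 RefSeq windows. The GFI1 letters AAATCA occurred in 2 windows, both of Irf8 (14.0% of all windows, both strands). The C/EBP letters TTGCNNAA (10.8% of all) and the IRF letters AANNGAAA (23.9% of all) each occurred in 1 window, of Gfi1 in both cases. The PU.1 letters GAGGAA occurred in none of the 7 windows and in 28.3% of all windows. GC content ran from 54.7% in the second Irf8 window to 80.7% in Cebpb, with a median of 52.7% over all windows. These ends lay at the 55.6th and 99.2th percentiles of all windows, and both Gfi1 windows at the 65.4th. These matches describe the letters only.

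The first comparison asked how abundant the RNA of each factor was in LSK cells. Per kilobase of exon, Spi1 was highest at a mean of 66.5 RPKM (RPKM being CPM divided by the exon length in kilobases, SD 4.13, n = 7 samples of both genotypes), and Cebpa followed at 60.0 RPKM (SD 4.27). Irf8 was at 47.7 RPKM, Gfi1 at 43.5 RPKM and Irf2bp2 at 40.6 RPKM. Neighbours among these 5 genes overlapped in their ranges over samples, and the higher mean was the higher value in 6, 6, 5 and 5 of the 7 samples, in the order given. Cebpe at 32.1 RPKM was below Irf2bp2 in all 7 samples. Cebpb at 10.3 RPKM and Cebpd at 6.30 RPKM were lower again, with no overlap of their ranges. The C/EBP genes Cebpa, Cebpe, Cebpb and Cebpd thus stood in this order of RPKM in every sample. The order of the factors depends on the exon length used. In CPM, Irf8 was highest in every sample, at 289.0 CPM or more, and no other factor exceeded 239.1 CPM. Cebpd was then above Cebpb, at 22.3 to 26.4 CPM against 12.2 to 18.3 CPM. Among 12846 tested genes with an exon length, the 8 factors lay between the 49.6th percentile (Cebpd) and the 94.7th percentile (Spi1).

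The second comparison asked whether the factors differed with the loss of 1 Ddx41 allele. None of the 8 did at a BH-adjusted p under 0.05 (edgeR quasi-likelihood test over 13340 genes, 29 called, or 0.217%), and adjusted p-values ran from 0.447 to 0.965. DESeq2 and limma-voom also called 0 of the 8. At an unadjusted p under 0.05, 1 factor was higher in Ddx41+/- (Cebpe) and 0 were lower, where 5.70% and 4.93% of all genes tested were. The genotypes overlapped in CPM for all 8 factors, whereas 4.85% of all genes tested had every Ddx41+/- sample above and 5.21% every Ddx41+/- sample below the Ddx41+/+ samples. The median absolute log2 fold change was 0.076 for the 8 factors and 0.107 for all genes tested. These sets were not matched for level, and the genes tested include many at low counts, where fold changes are less precise. The smallest count of any factor in any sample was 470. Over the 8 factors, the 95% intervals ran from 84.7% to 133.6% of the Ddx41+/+ level. In these bulk samples, fewer cells of a type and less RNA per cell cannot be told apart.

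**Figure D1:**
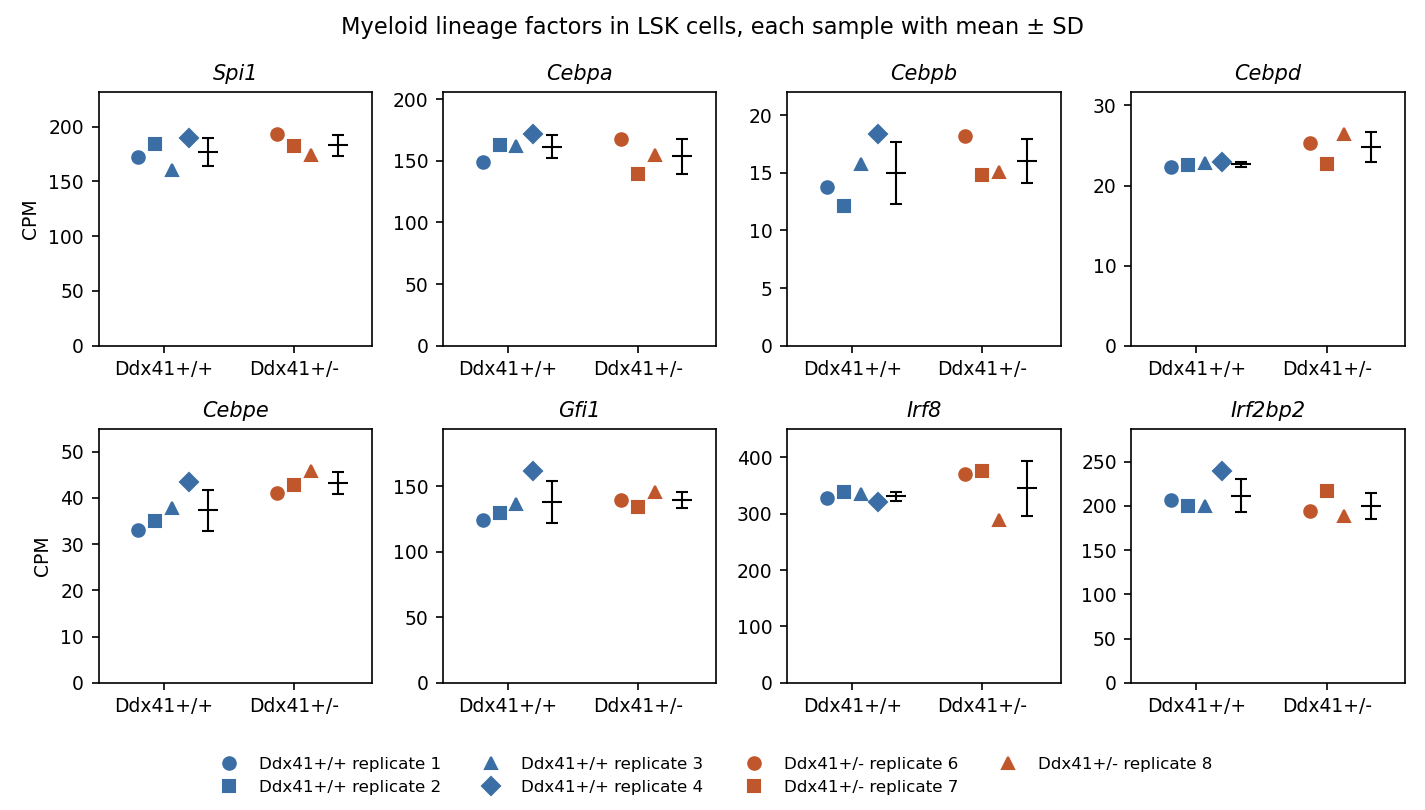
CPM (linear axis from 0, own scale for each gene) of the 8 factors in each Ddx41+/+ (blue, n = 4) and Ddx41+/- (orange, n = 3) sample, with symbols for replicates and black bars for the mean ± SD. The genotypes overlap in every panel, and Ddx41+/+ replicate 4 is the highest of its group for 7 of the 8 genes, Irf8 being the exception.

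Of the commitment factors, Spi1 (chromosome 2, 91082390 to 91115756, + strand, GRCm38) was at 172.0, 183.8, 160.8 and 189.4 CPM in Ddx41+/+ replicates 1 to 4 and at 193.1, 182.0 and 174.2 CPM in Ddx41+/- replicates 6 to 8. The highest value was in Ddx41+/- and the other 2 lay within the Ddx41+/+ range. Spi1 had a log2 fold change of 0.053 (SE 0.068, edgeR adjusted p = 0.837), with a 95% interval from -0.092 to 0.198. When 1 sample was left out it lay between 0.011 (without Ddx41+/+ replicate 3) and 0.089 (without Ddx41+/+ replicate 4).

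Cebpa (chromosome 7, 35119293 to 35121928, + strand, a single exon) was at 149.0, 162.9, 162.2 and 171.4 CPM in Ddx41+/+ and at 167.5, 139.2 and 154.3 CPM in Ddx41+/- samples. Replicate 7 was the lowest of all 7 samples, and the other 2 Ddx41+/- samples lay within the Ddx41+/+ range. The log2 fold change was -0.070 (SE 0.073, edgeR adjusted p = 0.788), with a 95% interval from -0.224 to 0.084. It was -0.0047 without Ddx41+/- replicate 7 and -0.138 without Ddx41+/- replicate 6, the ends of the range when 1 sample was left out.

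Cebpb (chromosome 2, 167688915 to 167690418, + strand, a single exon) was at 13.8, 12.2, 15.7 and 18.3 CPM in Ddx41+/+ and at 18.2, 14.8 and 15.0 CPM in Ddx41+/- samples. It varied most among the Ddx41+/+ samples, with a coefficient of variation (CV) of 17.8%, and all Ddx41+/- values fell inside that range. Its log2 fold change was 0.096 (SE 0.15, edgeR adjusted p = 0.867), with the widest interval of the 8, from -0.212 to 0.404. It was -0.0085 without Ddx41+/- replicate 6 and 0.207 without Ddx41+/+ replicate 4.

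Cebpd (chromosome 16, 15887286 to 15891031, + strand, a single exon) was at 22.3, 22.6, 22.8 and 23.0 CPM in Ddx41+/+ and at 25.3, 22.7 and 26.4 CPM in Ddx41+/- samples. The 4 Ddx41+/+ samples were nearly equal, with a CV of 1.29% that is below the 3.46% that counting error alone gives at this depth. Ddx41+/- replicates 6 and 8 were above all of them and replicate 7 was among them. The log2 fold change was 0.13 (SE 0.096, edgeR adjusted p = 0.675), and it was 0.083 without Ddx41+/- replicate 8 and 0.188 without Ddx41+/- replicate 7.

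Of the granulocyte factors, Cebpe (chromosome 14, 54710360 to 54712174, - strand), which is required for the granules of late neutrophil precursors, was at 33.0, 34.9, 37.9 and 43.4 CPM in Ddx41+/+ and at 41.0, 42.8 and 45.8 CPM in Ddx41+/- samples. All 3 Ddx41+/- values were above the Ddx41+/+ mean, and replicate 4 of the Ddx41+/+ group lay among them. The log2 fold change of 0.21 was the largest of the 8 in size (SE 0.097, 95% interval 0.0069 to 0.418), with an unadjusted p of 0.0436 and an edgeR adjusted p of 0.447. Without Ddx41+/+ replicate 4 it was 0.29 (adjusted p = 0.329). The unadjusted p was above 0.05 without Ddx41+/+ replicate 1, 2 or 3, without Ddx41+/- replicate 7 or 8, and when only library totals were used for scaling.

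Gfi1 (chromosome 5, 107716657 to 107726036, - strand), a repressor needed for neutrophil development, was at 124.6, 129.4, 136.7 and 161.5 CPM in Ddx41+/+ and at 139.3, 133.9 and 145.5 CPM in Ddx41+/- samples. The Ddx41+/- values lay inside the Ddx41+/+ range, whose top was set by replicate 4. Gfi1 had a log2 fold change of 0.016 (SE 0.081, edgeR adjusted p = 0.965), the smallest of the 8 in size, with a 95% interval from -0.157 to 0.189. Its sign changed without Ddx41+/+ replicate 1 (-0.030), Ddx41+/+ replicate 2 (-0.012) or Ddx41+/- replicate 8 (-0.015), and it was 0.100 without Ddx41+/+ replicate 4.

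Irf8 (chromosome 8, 120736358 to 120756694, + strand), the monocyte and dendritic cell factor, was at 328.4, 338.3, 335.6 and 321.1 CPM in Ddx41+/+ and at 370.6, 375.0 and 289.0 CPM in Ddx41+/- samples. Ddx41+/- replicates 6 and 7 were above all Ddx41+/+ samples and replicate 8 was below all of them. The CV was 2.33% in Ddx41+/+ and 14.1% in Ddx41+/- samples, a difference in spread that was not tested. The log2 fold change was 0.060 (SE 0.079, edgeR adjusted p = 0.839). Without Ddx41+/- replicate 8 it was 0.17, with an unadjusted p of 0.0147 and an adjusted p of 0.485, and without replicate 7 it was -0.0050.

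Irf2bp2 (chromosome 8, 126588296 to 126593986, - strand) was at 206.9, 199.8, 200.1 and 239.1 CPM in Ddx41+/+ and at 194.3, 216.5 and 188.7 CPM in Ddx41+/- samples. Replicates 6 and 8 were below all Ddx41+/+ samples and replicate 7 was among them. For Irf2bp2 the log2 fold change was -0.082 (SE 0.074, edgeR adjusted p = 0.748). It was -0.018 without Ddx41+/+ replicate 4 and -0.144 without Ddx41+/- replicate 7. For 5 of the 8 factors, exons overlapped those of a gene on the opposite strand. The partners of Cebpb and Cebpd were themselves measured, Tmem189 at a mean of 39.1 CPM and Spidr at 53.3 CPM. The strand setting of the counting is not given in the sources used here, so reads in these overlaps may belong to either gene.

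**Figure D2:**
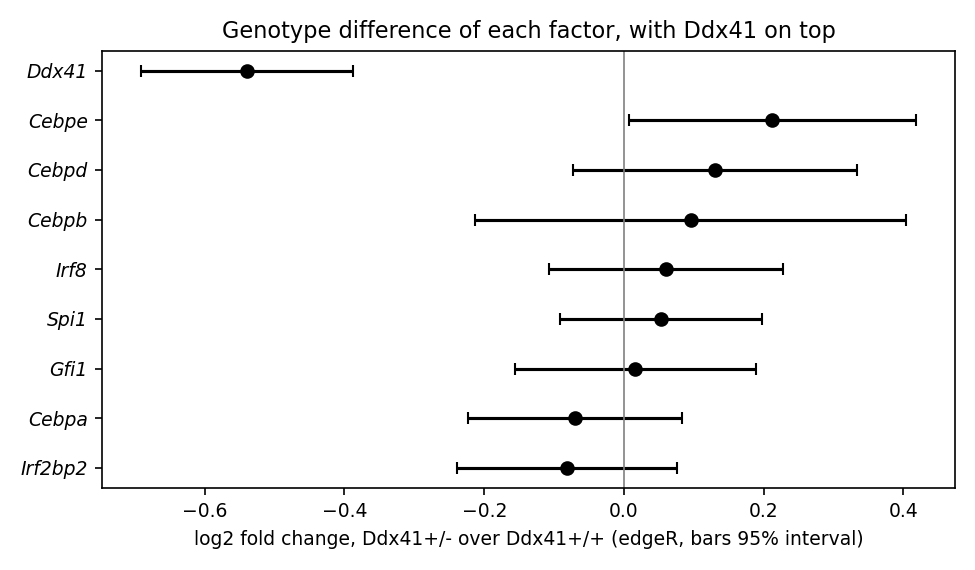
Log2 fold change of Ddx41+/- over Ddx41+/+ (horizontal axis, edgeR) with 95% intervals for the 8 factors and Ddx41. The Ddx41 point at -0.54 stands apart, and the intervals of 7 factors cross 0, with that of Cebpe starting at 0.0069.

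Ratios between factors within a library do not depend on scaling between libraries. For 3 such ratios, genotype was permuted over all 35 assignments (exact permutation, two-sided). This p doubles the share of the smaller tail, so with these sample sizes no ratio could reach a p under 0.05. The log2 ratio of Gfi1 to Irf8 counts, granulocyte against monocyte factor, was -1.40, -1.39, -1.30 and -0.99 in Ddx41+/+ and -1.41, -1.49 and -0.99 in Ddx41+/- samples. In each group 1 sample, Ddx41+/+ replicate 4 and Ddx41+/- replicate 8, lay well above the others. The means differed by -0.028 (exact permutation p = 0.686).

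The log2 ratio of Cebpa to Spi1 averaged -0.128 ± 0.097 in the 4 Ddx41+/+ and -0.255 ± 0.115 in the 3 Ddx41+/- samples (SD). The exact permutation p was 0.229. The log2 ratio of Cebpe to Cebpa, a later against an earlier granulocyte factor, was -2.17, -2.22, -2.10 and -1.98 in Ddx41+/+ and -2.03, -1.70 and -1.75 in Ddx41+/- samples. Ddx41+/- replicates 7 and 8 were above all Ddx41+/+ samples, and replicate 6 was below Ddx41+/+ replicate 4. The difference of 0.29 was larger than either SD (0.10 and 0.18) and had an exact permutation p of 0.114. After BH adjustment over the 3 ratios, p-values were 0.686, 0.343 and 0.343.

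**Figure D3:**
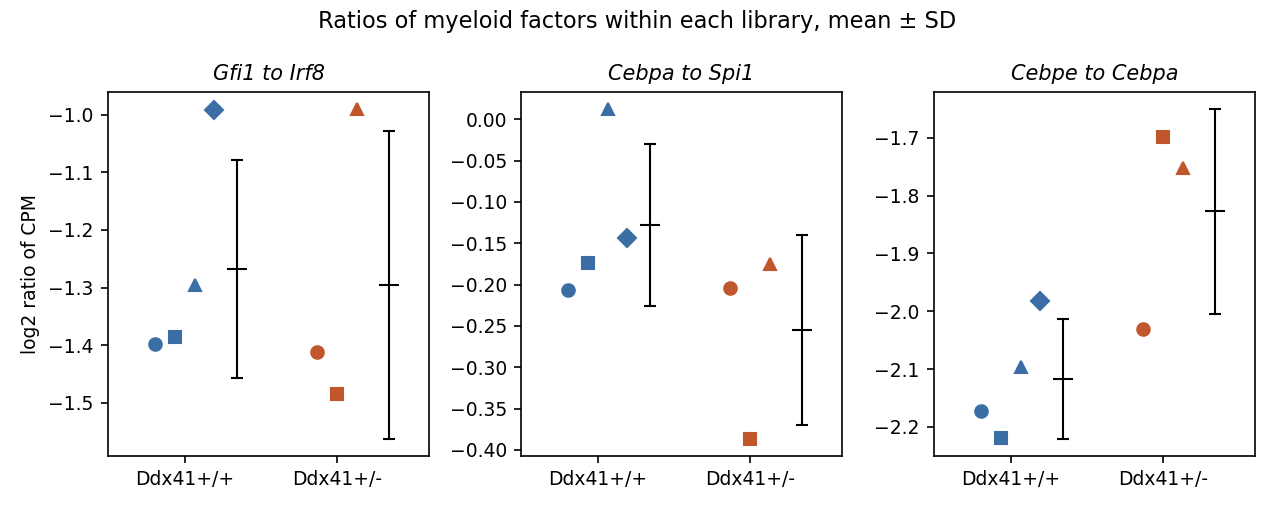
Log2 ratio of CPM (vertical axis, own scale for each panel) of Gfi1 to Irf8, Cebpa to Spi1 and Cebpe to Cebpa in each Ddx41+/+ (blue, n = 4) and Ddx41+/- (orange, n = 3) sample, with the mean ± SD as black bars and the replicate symbols circle, square, triangle and diamond for 1 to 4 and circle, square and triangle for 6 to 8. The genotypes overlap in all 3 panels.

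The other genes of the myeloid network were described by role, in 7 lists of 88 genes, all of which were tested. Of these, 1 was called higher (Mmp9) and 1 lower (Gata2) in Ddx41+/-. At an unadjusted p under 0.05, 25 were higher and 6 lower, against the 5.70% and 4.93% of all genes tested given above. They are taken in turn, from the granule genes to the transcription factors.

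Of 11 secondary and tertiary granule genes, which include C/EBPε-dependent genes of late neutrophil precursors, 9 were higher at an unadjusted p under 0.05 and 0 were lower, with a median log2 fold change of 0.79. Mmp9, a gelatinase of tertiary granules, was at 4.74, 4.50, 7.90 and 5.33 CPM in Ddx41+/+ and at 20.7, 16.8 and 12.4 CPM in Ddx41+/- samples, and rose by a log2 fold change of 1.57 (SE 0.21, edgeR adjusted p = 0.00677). Its groups did not overlap.
Mmp8, the neutrophil collagenase, had a log2 fold change of 1.16 (adjusted p = 0.0791), Itgb2l one of 0.95 (adjusted p = 0.132), Fcnb, a ficolin, one of 0.43 (adjusted p = 0.195) and Cd177, a neutrophil surface protein, one of 0.75 (adjusted p = 0.203). The summed level of the 11 genes was 584.4, 649.9, 863.4 and 803.7 CPM in Ddx41+/+ replicates 1 to 4. It was 1581, 1111 and 888.8 CPM in Ddx41+/- replicates 6 to 8, so that replicate 6 set the top of the range. The genes were measured in the same samples, so the 9 are not independent results. The count of 9 became 7 without Ddx41+/+ replicate 1, 2 or 4 or without Ddx41+/- replicate 6 or 7.

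Of 8 measured markers of mature neutrophils, 7 were higher at an unadjusted p under 0.05 and none passed the adjusted threshold. The exception, Cxcr2 (named after its values were seen), had a log2 fold change of -0.24 (edgeR adjusted p = 0.697). Ly6g was also on the list but was not among the symbols measured. The lists are not independent, since 4 of the markers (Ltf, Camp, Ngp and Lcn2) are also granule genes above. The summed level of the markers was 732.5 to 1240 CPM in Ddx41+/+ and 1314 to 2252 CPM in Ddx41+/- samples, and no marker was at 0. Of 11 LSK markers, 7 were lower at an unadjusted p under 0.05 and none passed the adjusted threshold. Their summed level was 1810 to 1994 CPM in Ddx41+/+ and 1679 to 1821 CPM in Ddx41+/- samples, which overlap. The part of either marker list in the granule gene values was not tested.

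The 8 primary granule genes, made earlier in granulocyte development, had a much higher summed level than the later genes. Their sums were 19540 to 23478 CPM in Ddx41+/+ and 24297 to 25780 CPM in Ddx41+/- samples. Mpo alone was at 12909 to 17267 CPM over all samples. Not every gene was above the later ones, since Cst7 at 102.4 to 147.2 CPM was below Ngp at 163.2 to 558.3 CPM. All 8 had a positive log2 fold change (median 0.18), and 5 were at an unadjusted p under 0.05. Elane, neutrophil elastase, had a log2 fold change of 0.26 (adjusted p = 0.264), Mpo, myeloperoxidase, one of 0.20 (adjusted p = 0.314), Lyz2, lysozyme, one of 0.26 (adjusted p = 0.365) and Cst7, cystatin F, one of 0.20 (adjusted p = 0.384). The count of 5 fell to 2 without Ddx41+/+ replicate 1 or Ddx41+/- replicate 7 and to 3 without Ddx41+/- replicate 6. None passed the adjusted threshold.

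Of 12 myeloid receptors, 3 were higher at an unadjusted p under 0.05 and 0 lower, and 11 had a positive log2 fold change (median 0.18). Cd14, a co-receptor for lipopolysaccharide, was at 13.04 to 17.5 CPM in Ddx41+/+ and 18.7 to 25.4 CPM in Ddx41+/- samples, with no overlap and a log2 fold change of 0.47 (adjusted p = 0.249). Itgam, the integrin CD11b, had a log2 fold change of 0.26 (adjusted p = 0.277), Fcgr3, an Fc receptor, one of 0.27 (adjusted p = 0.326) and Il6ra, the interleukin-6 receptor, one of 0.21 (adjusted p = 0.472). Without Ddx41+/- replicate 8 the count was 5.

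Of 14 monocyte and dendritic cell genes, 3 were higher and 0 lower at an unadjusted p under 0.05 (median 0.16). Ccr2, the chemokine receptor of inflammatory monocytes, had a log2 fold change of 0.31 (adjusted p = 0.250). F13a1, a coagulation factor subunit of monocytes, had one of 0.42 (adjusted p = 0.365) and was at 961.5, 1298 and 828.4 CPM in Ddx41+/- replicates 6 to 8, so that replicate 8 was lowest of this group for F13a1 as it was for Irf8. Tlr9 had a log2 fold change of 0.47 (adjusted p = 0.437) and Cx3cr1, the fractalkine receptor, one of 0.22 (adjusted p = 0.577). Macrophage markers were low, with sums of 50.1 to 69.2 CPM in Ddx41+/+ and 54.5 to 77.4 CPM in Ddx41+/- samples for 6 genes, none of which was at an unadjusted p under 0.05.

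The factors that act upstream of or with the 8 genes comprised 15 genes, of which 3 were higher and 0 lower at an unadjusted p under 0.05 (median 0.071). Zeb2, a repressor with roles in monocyte and dendritic cell fate, had a log2 fold change of 0.34 (adjusted p = 0.147) and Klf4, a monocyte factor, one of 0.42 (adjusted p = 0.321). Fos, an AP-1 subunit induced within minutes of stimulation, lay at 59.9 to 190.4 CPM across Ddx41+/+ and at 158.2 to 341.5 CPM across Ddx41+/- samples (log2 fold change 1.34, adjusted p = 0.460). Jun, its partner, had one of 1.08 (adjusted p = 0.481). Both were highest among Ddx41+/+ samples in replicate 4.

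Among 13 factors of opposing lineages, 1 was higher and 3 were lower at an unadjusted p under 0.05 (median -0.070). Gata2, a stem cell and erythroid-megakaryocyte factor that antagonises PU.1, was at 165.6, 121.2, 128.2 and 144.8 CPM in Ddx41+/+ and at 102.5, 101.4 and 94.4 CPM in Ddx41+/- samples, without overlap. Its log2 fold change was -0.49 (SE 0.093, edgeR adjusted p = 0.0471), and the adjusted p was above 0.05 in 10 of 15 alternatives, among them leaving out Ddx41+/+ replicate 3 or 4 or any 1 Ddx41+/- sample (0.054 to 0.169). Tal1, an erythroid and stem cell factor, had a log2 fold change of -0.28 (adjusted p = 0.105) and Zfpm1, the GATA cofactor FOG1, one of -0.28 (adjusted p = 0.336). The B-lineage factors Pax5 and Ebf1 had log2 fold changes of 1.19 (adjusted p = 0.434) and 0.63 (adjusted p = 0.524), from levels of at most 5.002 CPM in any sample. For B-lineage markers, 3 of 7 were higher at an unadjusted p under 0.05. The sums of the 7 were 42.4 to 63.2 CPM in Ddx41+/+ and 57.0 to 78.7 CPM in Ddx41+/- samples. Pax5 and Ebf1 are among these markers too, and Pax5 is counted as higher in both lists.

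Among 15 relatives and regulators of the factors, 1 was higher and 3 were lower at an unadjusted p under 0.05 (median -0.058). Irf2bp1, a homologue of Irf2bp2, had a log2 fold change of -0.24 (adjusted p = 0.355) and Gfi1b, the erythroid and megakaryocyte homologue of Gfi1, one of -0.28 (adjusted p = 0.366). Trib2 and Trib1, pseudokinases that promote the degradation of C/EBPα, had log2 fold changes of -0.54 (adjusted p = 0.404) and 0.65 (adjusted p = 0.443). Irf4, the close relative of Irf8, was singled out after its values were seen. It was at 19.7 CPM in Ddx41+/- replicate 7 and at 1.45 to 2.59 CPM in the other 6 samples.

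**Figure D4:**
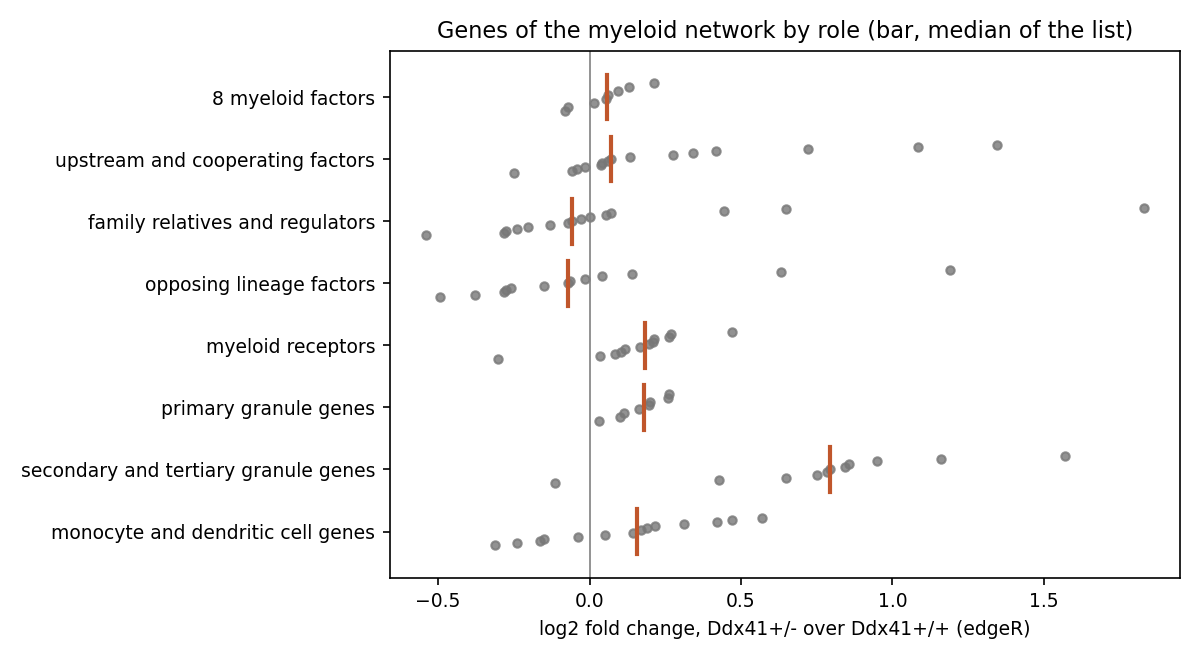
Log2 fold change of Ddx41+/- over Ddx41+/+ (horizontal axis, edgeR) for the 8 factors and the 7 lists of network genes, with a grey point for each gene and an orange bar at the median. The 8 factors lie between -0.082 and 0.21, while the list of secondary and tertiary granule genes centres on 0.79. In that list 1 gene is below 0, at -0.12, namely Padi4 (named after its values were seen), which encodes a peptidylarginine deiminase.

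The genes whose log2 CPM followed each factor most closely over the 7 samples were taken from 8889 genes with a mean of at least 10 CPM. The highest Pearson's r was 0.985 for Cebpa with Haus7, 0.981 for Cebpe with Arhgap19, 0.981 for Gfi1 with Epor and 0.979 for Irf2bp2 with Mrpl34. It was 0.974 for Irf8 with Igfbp4, 0.971 for Cebpd with Aldh4a1, 0.929 for Spi1 with Naglu and 0.908 for Cebpb with Cmpk2. The second genes were Glrx5, Slc25a32, Prorsd1, Vamp2, Ttc13, Dgat2, Rtn4r and Oasl1, in the same order, with r from 0.905 (Oasl1) to 0.983 (Glrx5). The points share their libraries, and the values are the highest of many over few samples, so they serve as a description only.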

How the data were processed

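The submitters' processing notes name FastQC 0.11.7, HISAT2 2.0.5, featureCounts 1.5.2 and the mm10 build. The values deposited by the authors are raw counts by gene symbol from poly(A) libraries, with no normalization. The labels name a stranded kit, the study's methods another, and the strand setting of counting is not given in the sources used here. A Ddx41+/- library numbered 5 was removed per the name of the counts and was not analysed here. No pair of libraries agreed within sampling noise (chi-square per gene of at least 13.7 in 21 pairs).

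Counts were tested with edgeR 4.0.16 in R 4.3.3 (quasi-likelihood, robust, TMM scaling, filterByExpr), which left 13340 genes. P-values were BH-adjusted over these genes with a threshold of 0.05. CPM used TMM-scaled library sizes, RPKM the exon union of GENCODE M21 (GRCm38), and log2 CPM a prior count of 2. The replicate CV of expression in the fit (biological coefficient of variation) was 12.9%. The study reports the use of littermates for transplants, without saying which samples share a donor or litter. P-values therefore measure the spread between these samples. Alternatives were other scalings, no filter, DESeq2 1.42.0, limma 3.58.1 voom, a non-robust fit and leaving out each sample. The factors, lists and tests were chosen with earlier results of these data known. Genes named were the 8 factors, Ddx41, list genes called, at most 4 further genes a list with the smallest p, and for each factor the 2 genes with the highest r, leaving out predicted genes. The fit was tested on simulated data.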

Additional observations from a re-analysis of the deposited data

How the results depend on the processing

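None of the 8 factors had an adjusted p under 0.05 in any of 15 alternatives, and Ddx41 kept its call in all 15 (log2 fold change -0.56 to -0.50). The number of factors at an unadjusted p under 0.05 was 0 with library totals only and 0 to 1 when a sample was left out. Signs changed when a sample was left out for Gfi1 (-0.030 to 0.100), Cebpb (-0.0085 to 0.207), Irf8 (-0.0050 to 0.172) and the Gfi1 to Irf8 ratio (-0.181 to 0.067). The cause was not tested. Genes called over all genes numbered 15 with library totals only, 91 with no low-count filter, 152 with DESeq2, 10 with limma-voom, 14 with the non-robust fit and 7 to 41 without 1 sample.

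The counts over lists were added after seeing the data. Called network genes numbered 1 with median-of-ratios scaling, library totals only, limma-voom or the non-robust fit, 7 with DESeq2, and 1 to 2 without 1 sample. Receptors at an unadjusted p under 0.05 numbered 5 with no filter or DESeq2 and 2 to 5 without 1 sample, and primary granule genes 2 to 5. No paired analysis was possible because the sources used here do not say which samples share a donor or litter.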

Other observations

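The spread of the factors among Ddx41+/+ samples was close to that of other genes, with a median CV of 8.04% against 9.54% for all genes tested. These sets were not matched for level. Erythroid markers were low in all samples, with a summed level of 24.7 to 48.7 CPM in Ddx41+/+ and 35.4 to 58.0 CPM in Ddx41+/- samples, and Hba-a1, Hbb-bs and Hbb-bt were at 0 in every sample. The T and NK list was carried by Nkg7, at 220.7 to 281.0 CPM, which myeloid progenitors also express.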
